A study of Mus musculus with 39 samples.

Results

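Micropunches of the nucleus accumbens (NAc), a ventral striatal nucleus, were compared by how much Slc17a7 RNA they held: the 5 libraries with the highest level against the 5 with the lowest, out of 19 NAc libraries and 39 libraries in all. Slc17a7 encodes a vesicular glutamate transporter, and both sets were chosen by it, with genotypes pooled. The study sequenced polyA RNA from the NAc and the basolateral amygdala (BLA) of 20 C57BL/6J mice aged 8 to 12 weeks, which were wild type or carried 1 gene-trap allele of Lmo4 (Lmo4gt/+); no further allele or treatment is given for any group. Each region was punched from frozen sections of 300 µm, so a punch holds every cell type of the tissue it cut, and a lower level can mean fewer cells of a type or less RNA per cell, which bulk samples cannot tell apart. Because the sets were selected on a measured gene, every difference between them is a description with no test. Tests were made only in libraries outside both sets: the 9 other NAc libraries and the BLA libraries of the same mice. The choice ranked Slc17a7 in all 19 NAc libraries, so the 9 are not independent of it.

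Neurons of the NAc are mainly GABAergic medium spiny neurons, and its glutamate comes from axons whose cell bodies, and therefore most of whose RNA, lie elsewhere. In the forebrain, glutamatergic neurons that use Slc17a7 sit mainly in the pallium: the cortex, the claustrum and endopiriform nucleus, the hippocampus and the BLA. Their transcription factors, layer genes and transmitter genes differ between these structures. Thalamic and other subcortical glutamatergic neurons use mainly Slc17a6 instead. The comparison therefore asks which kind of glutamatergic RNA came with Slc17a7 in the striatal punches.

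Libraries are named here by mouse number. The high set held libraries 134, 160, 136 and 148 of wild-type mice and library 122 of an Lmo4gt/+ mouse. Their Slc17a7 levels, in counts scaled to a fixed total of gene counts per library (CPM), were 914 in 134, 547 in 122, 190 in 160, 141 in 136 and 84.4 in 148. The low set held libraries 133 and 158 of wild-type mice and libraries 127, 157 and 128 of Lmo4gt/+ mice, between 1.30 and 4.06 CPM. Just outside the choice were library 159 at 52.4 CPM and library 135 at 5.51 CPM. In the 20 BLA libraries Slc17a7 lay between 1492 and 1946 CPM, so all 19 NAc libraries were below every BLA library.

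The label check used Lmo4, which lay between 67.3 and 105 CPM in the 10 wild-type NAc libraries and between 45.9 and 69.9 CPM in the 9 Lmo4gt/+ libraries. The highest of the latter was library 122, whose genotype field says wild type while its title says mutant; without it the Lmo4gt/+ maximum was 66.5 CPM and the genotypes did not overlap. Gene counts were 22991497 to 34742702 in the high set and 23139963 to 41326396 in the low set. Reads assigned to no gene made up 16.04% to 21.2% of reads in the high set and 17.98% to 21.2% in the low set. Library 149, in neither set, stood apart at 27.6%. No 2 NAc libraries of a set, or of the 9 in neither, agreed within sampling noise: over 56 pairs, chi-square per degree of freedom was at least 10.9.

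Tbr1, a transcription factor of early-born pallial glutamatergic neurons, followed Slc17a7 in order within the high set. Its normalised level was 139 CPM in library 134, 93.5 in 122, 31.7 in 160, 16.3 in 136 and 12.4 in 148. In the low set it was 4.54 CPM in 127, 2.91 in 157, 0.169 in 133, 2.59 in 128 and 1.69 in 158. The sets did not overlap, and the difference in mean log2(CPM + 0.5) was 4.03 ± 0.84 (SE, 5 against 5 libraries). Library 134 was above the highest BLA library, which stood at 131 CPM, and library 122 lay within the BLA range. Tbr1 lies on mm9 chromosome 2 at 61640987 to 61652171, plus strand. Tbr1 was not used to choose the libraries, but it was measured in the same libraries as Slc17a7.

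Of 16964 genes that passed the filter on low counts, 50 were higher, meaning at least 2-fold on the log2(CPM + 0.5) scale with all 5 high libraries above all 5 low ones, which is 0.295% of the genes. No gene met the reverse rule (0%). Without a limit on size, all 5 high libraries were above the low ones for 143 genes (0.843%) and below them for 60 genes (0.354%). The median difference over all 16964 genes was 0.00 on the log2 scale, and 50.4% of them were positive. Many of the 50 genes were nearly absent from the low set and passed the filter only through the high set, so their count and size carry no weight beyond description. Libraries 134 and 122 held the 2 highest levels for 8 of the 12 genes with the largest differences, and without both of them 41 genes were higher, of which 33 were among the 50.

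**Figure D1:**
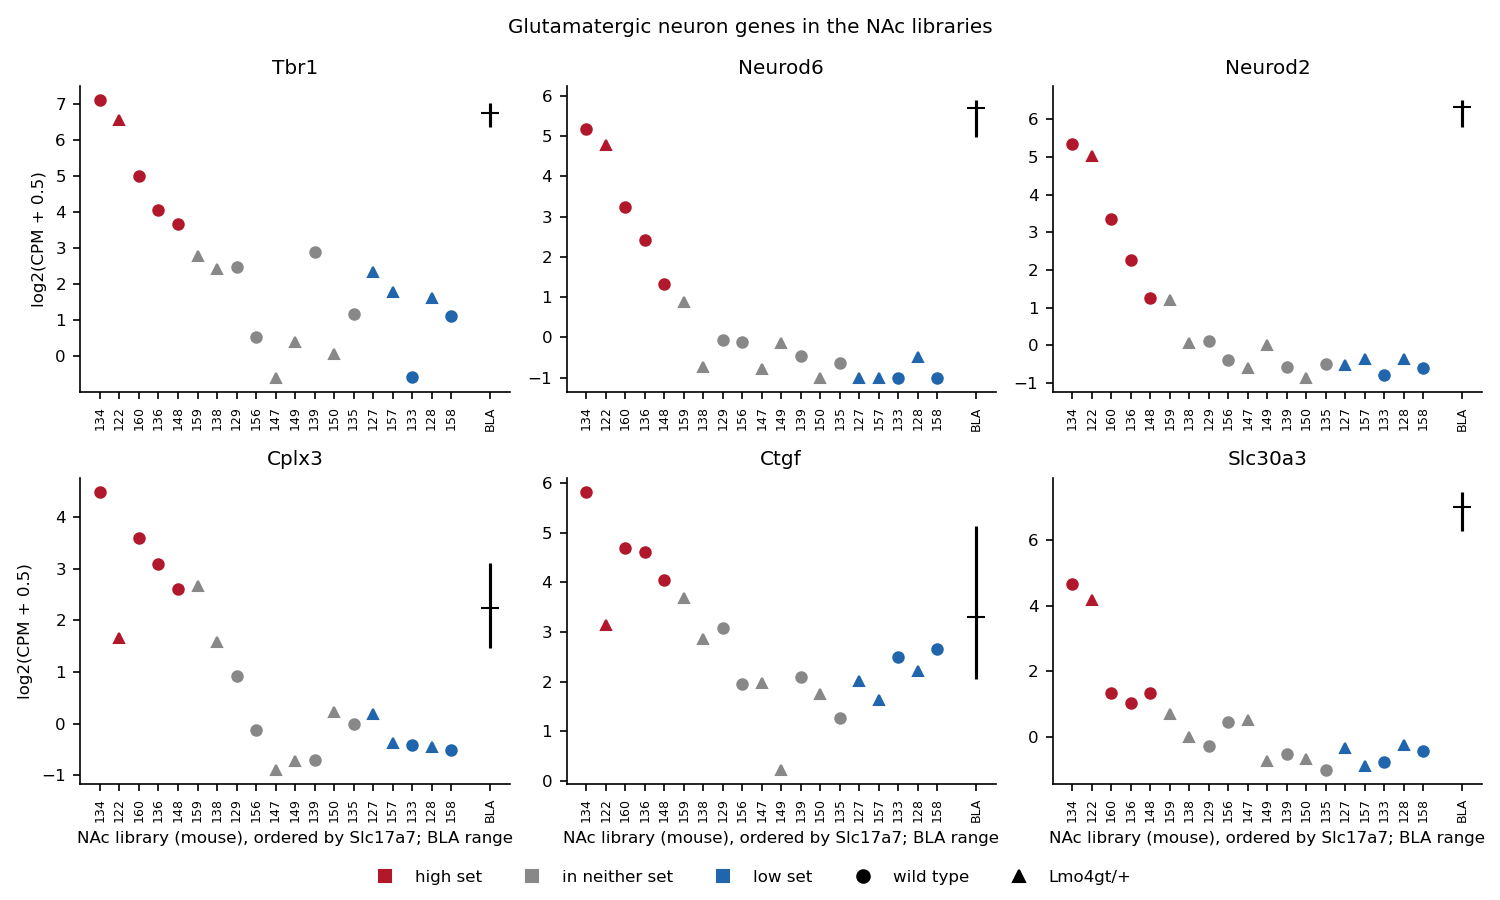
Levels of 6 genes in each NAc library, on a log2(CPM + 0.5) axis, with libraries ordered from the highest Slc17a7 on the left to the lowest on the right; the vertical line at the right gives the lowest to highest of 20 BLA libraries and its tick their median. All 6 genes are higher in the 5 high libraries than in the 5 low ones, but Cplx3 and Ctgf are lower in library 122 than in the other 4 high libraries, while Slc30a3 is high mainly in libraries 134 and 122.

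The pallial transcription factors were the list with the largest differences. Of 10 members, 9 passed the filter and 6 were higher, beside 0.295% of all genes. Neurod6, Tbr1, Neurod2, Emx1 and Fezf2 were among the 6. That share, and 0% for lower genes, also stands beside the list counts below. The median difference of the pallial factors was 2.33 on the log2 scale. The sum of the list was 733 CPM in library 134 and 563 in 122, but 226 to 259 CPM in libraries 160, 136 and 148. In the low set it was 146 to 248 CPM, so the sums overlapped. Average log2 CPM in the 9 other NAc libraries was 7.49 for Mef2c, 4.02 for Lhx2 and 1.71 for Tbr1. Mef2c, a member that overlapped between the sets, thus made up most of the sum there. Its share in the high and low sets is not given here.

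Neurod6 and Neurod2 are helix-loop-helix factors of differentiated pallial neurons. Neurod6 was at 35.6, 26.7, 8.94, 4.83 and 2.02 CPM in libraries 134, 122, 160, 136 and 148, and was at 0 in 4 of the 5 low libraries. Neurod2 was at 39.9, 31.97, 9.82, 4.30 and 1.88 CPM in the same order and at most 0.280 CPM in the low set. The BLA range began at 30.9 CPM for Neurod6, which library 134 alone reached, and at 54.9 CPM for Neurod2, which none reached. Emx1, a factor of the dorsal pallium, ran from 0.595 to 6.73 CPM in the high set and was at most 0.146 CPM in the low set. Fezf2, which specifies subcortical projection neurons, ran from 2.05 to 21.6 CPM against 0.682 to 1.47 CPM. Lhx2, Mef2c and Bhlhe22 overlapped between the sets, with differences of 0.18 ± 0.13, 0.37 ± 0.32 and 0.46 ± 0.38, and Neurod1 was below the filter at no more than 0.881 CPM in any NAc library.

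Genes of cortical layers 6 and 6b were the only layer list with members that met the rule. Of 11 members, 4 were higher (Cplx3, Nxph3, Ctgf and Sla), beside 0.295% of all genes. Of their differences 10 of 11 were positive, beside 50.4% of all genes, and the median was 0.99. Cplx3 encodes a complexin, a regulator of vesicle fusion, and marks layer 6b and subplate neurons. It was at 21.9 CPM in library 134, 2.63 in 122, 11.5 in 160, 7.97 in 136 and 5.62 in 148, against 0.201 to 0.634 CPM in the low set (3.39 ± 0.49). Ctgf, a secreted matricellular protein of layer 6b, was at 56.5 CPM in 134, 8.31 in 122, 25.4 in 160, 23.95 in 136 and 16.1 in 148, against 2.60 to 5.82 CPM (2.27 ± 0.48). In both genes library 122 was the lowest of the high set although it was second in Slc17a7 and in Tbr1.

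Nxph4, a neurexophilin also used as a layer 6b marker, had the same order, with 9.56, 1.56, 6.52, 5.69 and 3.57 CPM in libraries 134, 122, 160, 136 and 148. Library 122 was the only one to overlap with the low set (0.585 to 1.65 CPM), which kept Nxph4 out of the 50 genes. Nxph3, a related neurexophilin, did not share this order, as library 122 had 17.7 CPM against 4.73 in 148 and at most 2.05 in the low set. Among genes of corticothalamic layer 6 neurons, Ntsr1, a neurotensin receptor, overlapped between the sets (0.99 ± 0.38), as did Rprm (0.47 ± 0.60), and Syt6 had a difference of 0.00 ± 0.14. Cplx3 and Ctgf lie on mm9 chromosome 9 at 57447826 to 57454088 (minus strand) and chromosome 10 at 24315248 to 24318489 (plus strand).

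None of the 10 genes of cortical layers 2 to 4 was higher, beside 0.295% of all genes. At that share a list of 10 genes would be likely to hold none. Of their differences 8 were negative, with a median of -0.23. Cux2, a homeodomain factor of upper layers, was at 44.2 to 68.0 CPM in the high set and 57.4 to 64.8 CPM in the low set. Rorb, a nuclear receptor of layer 4, was at 33.4 to 38.4 CPM against 29.7 to 40.8 CPM. Both genes were thus present at similar levels in punches with little Slc17a7. The low-set sums were 389 to 453 CPM for layers 2 to 4 and 372 to 420 CPM for layer 5. With such levels neither list can show a small share of such tissue. Of 11 layer 5 genes 10 passed the filter and none was higher, with a median of -0.02, although Deptor, an inhibitor of mTOR, came close: it was 48.9, 30.2, 25.4, 14.9 and 30.7 CPM in libraries 134, 122, 160, 136 and 148 and 12.1 to 15.05 CPM in the low set. Npr3, a natriuretic peptide receptor, was at 10.3 CPM in 134 and 9.28 in 122, but at 0.251 to 1.02 CPM in the other 3.

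**Figure D2:**
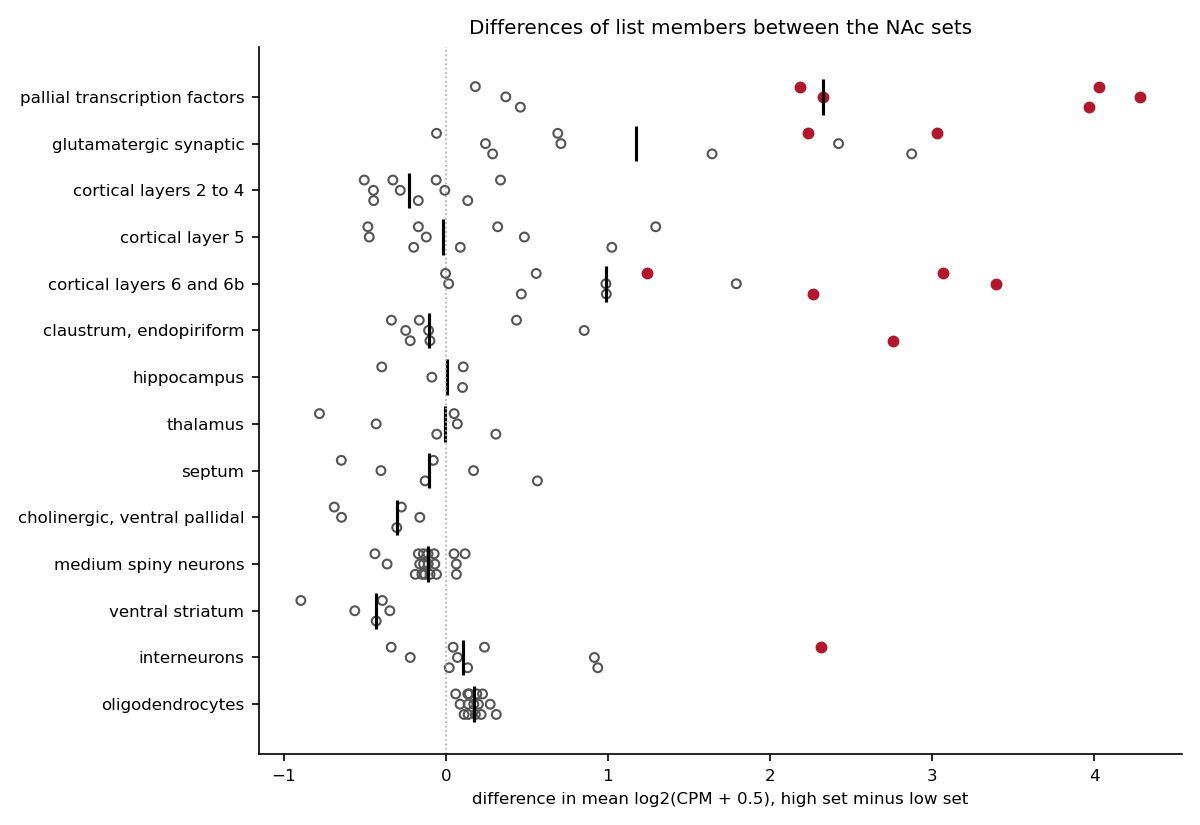
Difference between the high and the low set (horizontal axis, mean log2(CPM + 0.5), high minus low) for each list member that passed the filter, except 1 pallial factor that is not shown; filled points are at least 2-fold higher with no overlap between 5 and 5 libraries, open points are all others, and the vertical line is the median of the whole list. Filled points fall in the lists of pallial factors, glutamatergic synaptic genes, layers 6 and 6b, claustrum and interneurons.

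Synaptic and membrane genes of cortical glutamatergic neurons had a median difference of 1.18 over 10 members, of which 2 were higher. Slc30a3, the transporter that loads zinc into synaptic vesicles, was at 24.7 CPM in library 134, 17.3 in 122, 2.01 in 160, 1.52 in 136 and 2.02 in 148, against 0.0394 to 0.350 CPM in the low set (3.03 ± 0.80). Nptx1, a neuronal pentraxin that clusters AMPA receptors, was at 426, 249, 101, 84.7 and 38.01 CPM in the same order against 20.8 to 32.4 CPM (2.24 ± 0.62). Nrn1, a membrane-anchored neurotrophic protein, had a larger difference (2.88 ± 1.02) but overlapped: it was 49.5 CPM in 134 and 34.9 in 122, and 1.72 to 3.72 CPM in the other 3 high libraries, against up to 2.10 CPM in the low set. Rtn4rl2 and Rtn4r, receptors of the Nogo family, overlapped in the same way, with 15.04 and 11.98 CPM of Rtn4rl2 in 134 and 122 and 0.728 to 1.88 CPM in the other 3. Without libraries 122 and 134 the median of this list was 0.49, that of the pallial factors 1.53, and that of layers 6 and 6b 0.70.

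Of 9 genes of the claustrum and endopiriform nucleus, Nr4a2 alone was higher, and the list's median was -0.11. The list's sum was 421 to 637 CPM in the high set and 548 to 630 CPM in the low set. It was 644 to 982 CPM in the BLA. With such levels in punches with little Slc17a7, the median cannot show a small share of such tissue. Nr4a2, an orphan nuclear receptor of claustrum, endopiriform and layer 6b neurons, was at 9.91 CPM in library 134, 3.60 in 122, 11.3 in 160, 10.1 in 136 and 12.3 in 148, against 0.394 to 1.73 CPM in the low set (2.76 ± 0.37). Its level did not follow Slc17a7 within the high set: library 148, the lowest in Slc17a7, was the highest in Nr4a2. Ntng2, a netrin-G adhesion protein, did not overlap either (10.8 to 17.8 against 6.13 to 8.82 CPM) but was under 2-fold (0.85 ± 0.15). Gnb4, Synpr, Oprk1 and Lxn, other members, had differences between -0.25 and -0.10.

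The genes Prss12, Bmp3, Prdm8 and Rspo2, which are in no list, were also among the 12 with the largest differences. Prss12, a secreted serine protease of the synapse, was at 23.1, 16.5, 19.6, 11.7 and 3.57 CPM in libraries 134, 122, 160, 136 and 148 against 0.0787 to 1.15 CPM (3.85 ± 0.52). Bmp3, a ligand of the BMP family, ran from 3.07 to 28.7 CPM against 0.592 to 2.09 CPM (2.72 ± 0.59). Prdm8, a histone methyltransferase family member of projection neurons, ran from 1.79 to 7.46 CPM against 0 to 0.210 CPM (2.66 ± 0.35). Rspo2, a secreted enhancer of Wnt signalling, ran from 0.664 to 12.7 CPM against 0 to 0.276 CPM (2.55 ± 0.67). Cck, a neuropeptide gene that both pyramidal neurons and interneurons express, was the only higher gene of the interneuron list and is named after its values were seen, with 52.8, 32.8, 7.31, 4.53 and 5.78 CPM in the same order against 1.34 to 3.47 CPM.

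Genes of other glutamatergic regions met neither rule. None of the 4 hippocampal, 6 thalamic and 6 septal genes that passed the filter was higher or lower, beside 0.295% and 0% of all genes. At those shares such short lists would be likely to hold none, so the counts say little about these regions. The low-set sums were 32.7 to 47.2, 40.4 to 57.0 and 33.2 to 73.6 CPM, so the lists cannot show a small share of such tissue. Their medians were 0.01, 0.00 and -0.10. All 3 medians were on either side of 0 when single libraries were left out, from -0.27 (thalamic genes without library 133) to 0.12 (hippocampal genes without library 122). Slc17a6, the transporter of thalamic and other subcortical neurons, was at 2.11, 6.68, 3.22, 1.32 and 8.47 CPM in libraries 134, 122, 160, 136 and 148 and at 9.61, 6.30, 0.169, 3.57 and 4.25 CPM in libraries 127, 157, 133, 128 and 158. Its highest NAc values, 18.3 CPM in library 139 and 14.8 in 129, were in libraries of neither set. Prox1, a factor of dentate granule cells, was at 19.2 to 38.2 CPM against 20.9 to 35.9 CPM. Tcf7l2, a Wnt effector that is abundant in thalamus, was at 7.80 to 15.02 CPM against 10.1 to 17.8 CPM.

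Levels relative to Tbr1 were compared with the BLA by setting each gene against 100 CPM of Tbr1 in its own library. Each ratio is compared across libraries and never between genes. Nxph3 stood at 20.8 per 100 Tbr1 in library 134, 18.97 in 122, 63.7 in 160, 79.1 in 136 and 38.3 in 148, all above the BLA range of 4.39 to 15.9. Slc30a3 stood at 17.8, 18.5, 6.32, 9.31 and 16.3 in the same order, all below the BLA range of 74.0 to 177. Nrn1 (10.5 to 37.3 against 91.7 to 194), Neurod2 (15.2 to 34.2 against 52.9 to 97.3) and Rspo2 (5.37 to 9.72 against 23.6 to 52.0) were also below the BLA range in all 5 libraries. Relative to Tbr1, the high NAc libraries thus held more Nxph3 and less Slc30a3, Nrn1, Neurod2, Neurod6, Rspo2 and Cck than any BLA library. The ratios were not taken library by library in the low set. Its means were 2.38 CPM for Tbr1, 1.37 for Nxph3, 0.201 for Slc30a3, 0.199 for Neurod2 and 0.159 for Rspo2. Set against the Tbr1 mean, the low-set means of Nxph3, Slc30a3, Neurod2 and Rspo2 lay on the same side of the BLA ranges. For these genes the pattern was thus not particular to the high set, though the low-set levels rest on few reads. Cck, with a low-set mean of 2.32 CPM, lay inside its BLA range on this measure. Nothing here was tested. Over the 50 genes, 32 had a high-set mean below the BLA mean and 18 one at or above it, and the median was 55.3% of the BLA mean.

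Layer 6b genes per Tbr1 differed among the high libraries. Levels found in NAc punches with little Slc17a7 were not subtracted, and they weigh more in libraries with less Tbr1. The low-set means were 4.24 CPM for Ctgf, 0.937 for Nr4a2 and 0.319 for Cplx3. Their part in the ratios was not tested. Cplx3 stood at 15.8 per 100 Tbr1 in library 134, 2.82 in 122, 36.3 in 160, 48.8 in 136 and 45.4 in 148, with a BLA range of 1.89 to 6.21. Ctgf stood at 40.7, 8.89, 80.1, 147 and 130 in the same order, with a BLA range of 4.06 to 26.6. In both, library 122 lay inside the BLA range and the other 4 above it. Nr4a2 stood at 7.15 in 134, 3.85 in 122, 35.5 in 160, 61.5 in 136 and 99.3 in 148, against 24.6 to 53.5 in the BLA. The 2 libraries with the most Slc17a7 were thus below the BLA range for Nr4a2, 1 lay inside and 2 above it.

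**Figure D3:**
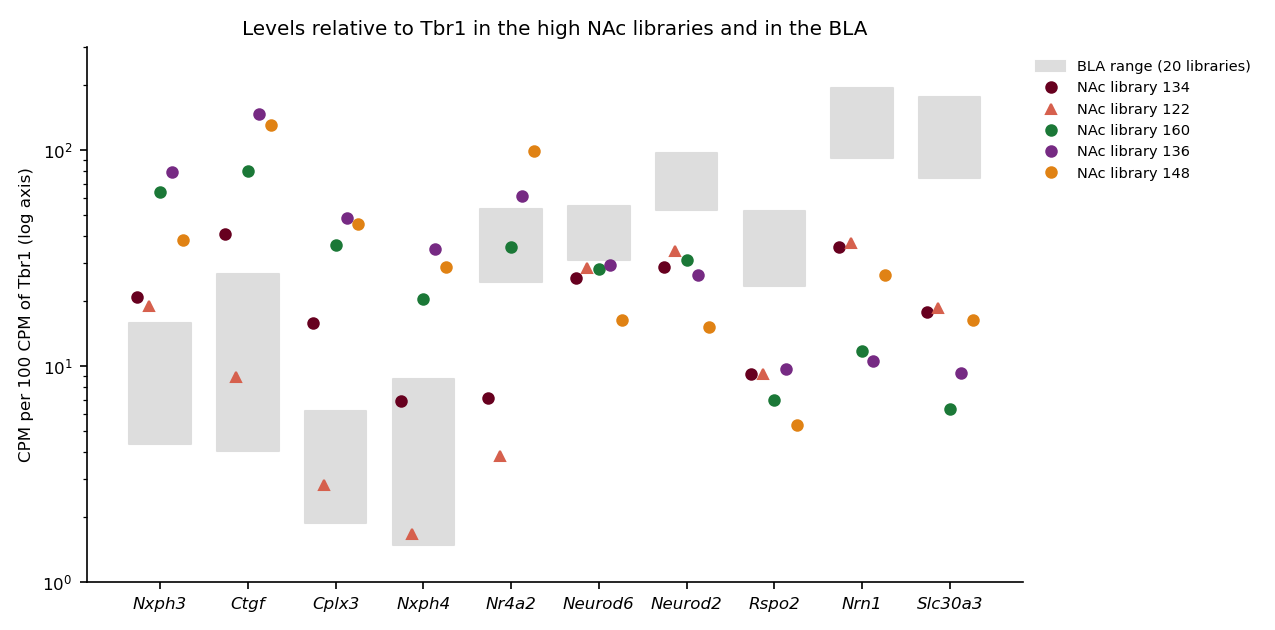
Level of 10 genes relative to Tbr1 in the same library (log axis, CPM per 100 CPM of Tbr1), for the 5 high NAc libraries (points, triangle for Lmo4gt/+) and the range over 20 BLA libraries (grey). Nxph3 lies above the BLA range and Slc30a3, Nrn1, Rspo2, Neurod2 and Neurod6 below it in all 5 libraries, and library 122 is the lowest for Ctgf, Cplx3, Nxph4 and Nr4a2.

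Striatal genes were measured beside the glutamatergic ones. None of 19 medium spiny neuron genes met either rule, 15 differences were negative and the median was -0.11, which went to 0.03 without library 134 and to -0.22 without library 160. Their summed level was 5839 CPM in library 134 and 6187 in 122, the lowest of the high set, and 8844 to 10508 CPM in libraries 160, 136 and 148; the low set ran from 6377 to 10368 CPM. Drd2, a dopamine receptor of indirect-pathway neurons, was at 92.3, 125, 198, 184 and 155 CPM in libraries 134, 122, 160, 136 and 148 and at 120 to 195 CPM in the low set. Both sets were far above the BLA sum of 1009 to 2302 CPM. All 5 genes of the ventral striatum list had negative differences (median -0.43) and overlapped one by one, while their sum, 633 to 917 CPM in the high set and 928 to 1210 CPM in the low set, did not overlap. The list of cholinergic and ventral pallidal genes was also negative for 5 of 5 matched members, with a median of -0.30. Their part in the glutamatergic differences was not tested.

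Myelin genes were farthest apart between libraries 134 and 122. All 15 oligodendrocyte genes had positive differences, with a median of 0.17, and none met the rule; the median was 0.04 without library 134 and 0.37 without library 122. Their sum was 9072 CPM in library 134, 3564 in 122, 8152 in 160, 6835 in 136 and 5520 in 148, and 4639 to 7529 CPM in the low set, so library 122 was the lowest of the 10 and library 134 the highest. Mbp, encoding myelin basic protein, was at 3128 CPM in library 134 and 1205 in 122. Of the other lists, medians were 0.00 for astrocytes (11 genes), 0.02 for microglia (11), 0.07 for endothelial and mural cells (14), 0.08 for oligodendrocyte precursors (7), 0.06 for dividing cells and neuroblasts (8), 0.06 for meninges (9), 0.10 for interneurons (10), 0.38 for red blood cells (3), 0.01 for mitochondrial genes (13), -0.10 for activity-induced early genes (10), -0.29 for olfactory bulb projection neurons (2) and -0.32 for choroid plexus and ependyma (3 of 10 passed the filter). No member of these lists other than Cck met the rule. Single libraries moved these small medians: with each of the 10 left out in turn they changed sign for astrocytes, microglia, oligodendrocyte precursors, meninges, mitochondrial genes, dividing cells and neuroblasts (-0.20 without 160 to 0.32 without 134) and early genes (-0.32 without 136 to 0.19 without 160). Without library 134 the choroid plexus median was -0.03, without library 122 the red blood cell median was 0.24, and without library 136 the interneuron median was 0.26.

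**Figure D4:**
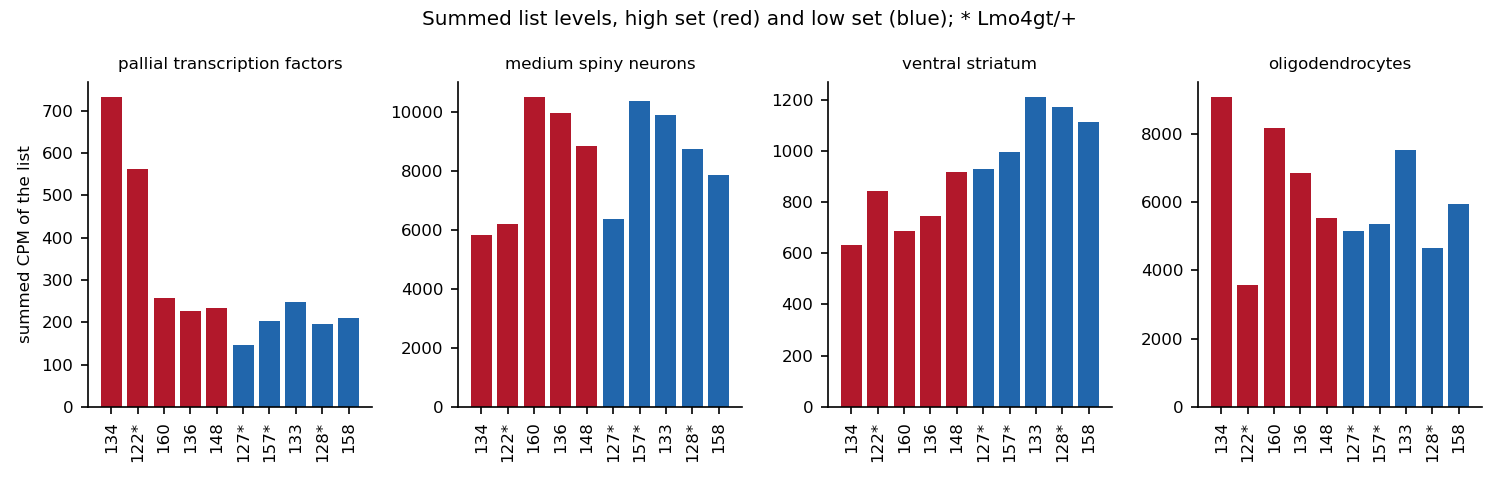
Summed CPM of 4 gene lists in the 5 high (red) and 5 low (blue) NAc libraries, each ordered by Slc17a7 from left to right, with an asterisk for Lmo4gt/+. The pallial factor sum is highest in libraries 134 and 122, and libraries 136 and 148 are below low-set library 133. The medium spiny neuron sum is low in 134, 122 and 127. The ventral striatum sum is lower in every high library than in every low one, and the oligodendrocyte sum is lowest in library 122.

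In the 9 NAc libraries in neither set, genes were tested for a relation to Slc17a7. The test was of a slope per doubling of Slc17a7, with genotype as a term. These libraries were left over by the same ranking, so the test is not independent of the choice. Slc17a7 ran from 5.51 to 52.4 CPM in them. Among 18421 genes, edgeR's quasi-likelihood test with Benjamini-Hochberg adjustment called none in either direction (0%); at an unadjusted p under 0.05 there were 951 higher (5.16%) and 678 lower (3.68%). DESeq2 called 2 higher genes, of which Ctgf had an adjusted p of 0.0306. Of the 50 genes, 41 could be tested, 33 had a positive slope, and 14 were higher at an unadjusted p under 0.05, which is 34.1% of the 41 beside 5.16% of all genes; none was lower. Their median slope was 0.29, against 0.00 over all genes.

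The slopes of the named genes give the sizes, and none passed the adjusted test (adjusted p = 0.562 for each in edgeR). Cplx3 had a slope of 1.33 ± 0.30 (SE), Tbr1 0.99 ± 0.33, Prss12 0.90 ± 0.22 and Ctgf 0.82 ± 0.17 log2 units per doubling. Slc17a6, of the thalamic list, had a slope of 1.17 ± 0.41, although that list did not separate the high and low sets. Of 6 thalamic genes tested, 5 had a positive slope. At an unadjusted edgeR p under 0.05, 2 of them were higher, beside 5.16% of all genes, and 0 lower. The layer 6b genes were highest in library 159, the library next to the high set, where Cplx3 was at 5.87 CPM and Ctgf at 12.3 CPM. In libraries 147, 149 and 139 Cplx3 was at most 0.113 CPM. Library 139 had 6.87 CPM of Tbr1 at only 5.69 CPM of Slc17a7, with 0.113 CPM of Cplx3. Across the 9 libraries Tbr1 and Slc17a7, both as log2, had a Pearson's r of 0.55 (exact permutation p = 0.123, adjusted 0.247 over 2 coefficients) and a Spearman's rho of 0.35 (exact permutation p = 0.359, adjusted 0.359). Without libraries 159 and 138, the farthest from the median, r was 0.18 and rho 0.04, so the relation rests on those 2. Without library 159 the genes at an unadjusted p under 0.05 went from 1629 to 193. How many of the 14 genes counted above would remain without it is not given here. Of the 9, library 159 also had the lowest share of reads assigned to no gene (16.8%). It had the highest share not aligned uniquely (10.1%).

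Calls in these libraries depended on library 150. Without it edgeR called 292 of 18259 genes higher (1.6%) and 56 lower (0.307%), and 5 of the 50 genes were among the former: Ctgf, Cplx3, Prss12, Nr4a2 and 3110035E14Rik. Genes of ribosomal proteins and of nuclear-encoded oxidative phosphorylation subunits, picked by symbol after these calls were seen, made up 93 of the 292. With all 9 libraries, 208 of 221 such genes had a positive slope, 129 were higher and none lower at an unadjusted p under 0.05 (5.16% and 3.68% of all genes), and their median slope was 0.20. The mitochondrially encoded mt-Nd1 (edgeR adjusted p = 0.0344) and mt-Cytb (adjusted p = 0.0470) were also called higher without library 150. These transcripts moved with Slc17a7 in the same libraries as the glutamatergic genes, and their part in the slopes above was not tested.

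**Figure D5:**
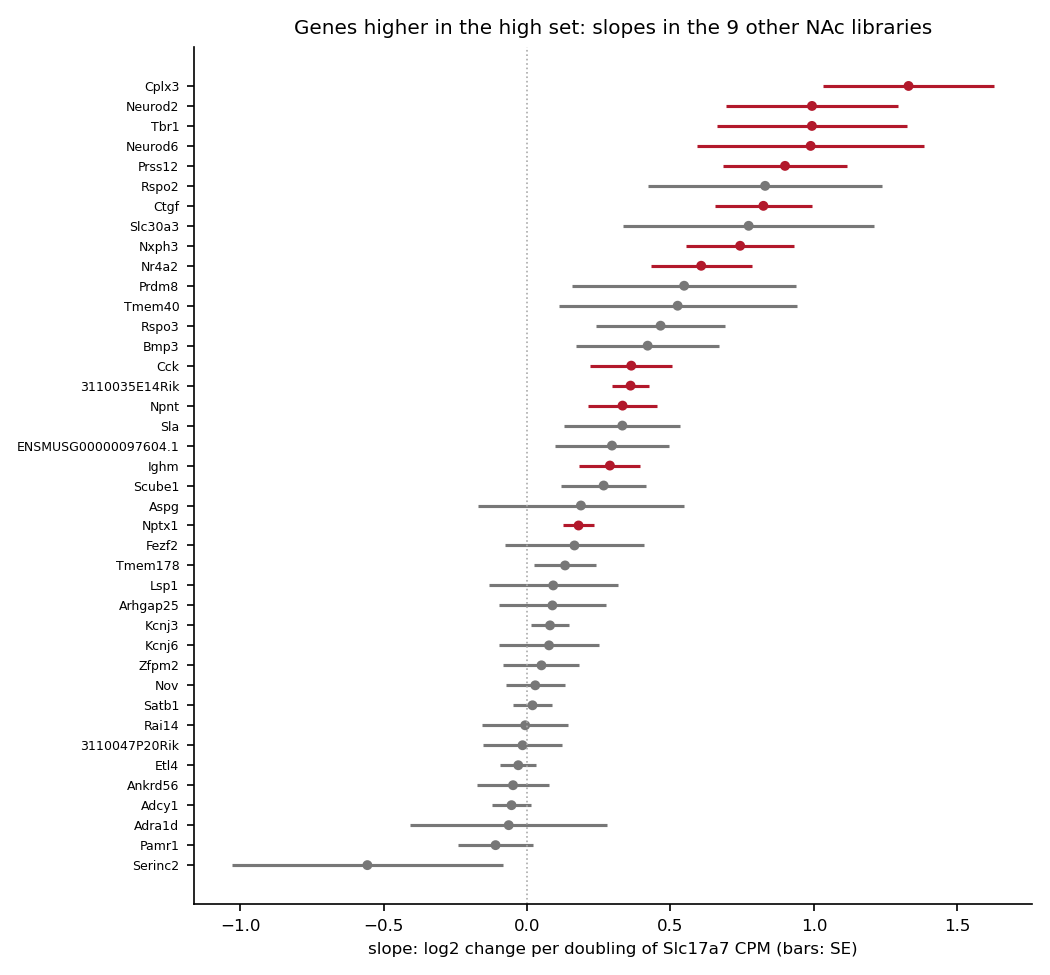
Slope per doubling of Slc17a7 in the 9 NAc libraries of neither set (points, bars are SE) for the testable genes of the 50, except 1 that is not shown; red marks an unadjusted p under 0.05, and none passed the adjusted threshold. Cplx3, Neurod2, Tbr1 and Neurod6 have the steepest slopes of those shown, and 33 of all 41 testable genes are positive.

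The BLA libraries of the same 10 mice addressed whether these mice also differed outside the NAc punches. Of 17112 genes, edgeR with genotype as a term called none (0%). The unadjusted p was under 0.05 for 625 genes (3.65%), DESeq2 called Krt2 and BC006779, and edgeR without the filter on low counts called 15 genes. All 50 genes could be tested there and 14 had positive differences. At an unadjusted p under 0.05 none of the 50 was higher, beside 1.74% of all genes, and 6 were lower (12%), beside 1.91% of all genes. Etl4, one of the 50 and named after its values were seen, was called lower without the filter (-0.33 ± 0.07, edgeR adjusted p = 0.0292). The median of the 50 was -0.18 beside 0.00 over all genes. Tbr1 was 103 ± 18.4 CPM (SD, n = 5) in the BLA of the high-set mice and 113 ± 15.3 CPM (n = 5) in that of the low-set mice, which the exact two-sided permutation test did not separate (p = 0.365, adjusted 0.857 over 6 tests; the smallest p this design allows is 0.00794). The permutation test, unlike the edgeR fit, had no term for genotype, which the sets did not hold equally. In the BLA of mice 134 and 122, which led in the NAc, Tbr1 was at 131.3 and 93.4 CPM, beside 90.04 to 130.8 CPM in the low-set mice.

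Summed lists in the BLA did not pass the exact permutation test either, two-sided, with no genotype term and adjusted over the same 6 tests. Pallial factors were 1083 ± 136 against 1036 ± 80.3 CPM (p = 0.571, adjusted 0.857, 5 against 5 libraries). Glutamatergic synaptic genes were 3119 ± 287 against 3113 ± 89.2 CPM (exact p = 0.984, adjusted 0.984). Layer 6 and 6b genes (exact p = 0.548, adjusted 0.857), claustrum genes (exact p = 0.794, adjusted 0.952) and medium spiny neuron genes (exact p = 0.5, adjusted 0.857) did not pass either. Among single genes with the smallest p, none of which passed with the filter on low counts, Krt2, a keratin, was higher by 1.36 ± 0.26 (edgeR adjusted p = 0.572), and Neurod1 by 0.74 ± 0.18 (adjusted p = 0.999). Adcy8, an adenylyl cyclase, was higher by 0.44 ± 0.10, Unc5d, a netrin receptor, by 0.32 ± 0.07, and Ptpro, a receptor phosphatase, by 0.44 ± 0.10. Without the filter edgeR called Ptpro (adjusted p = 0.000115) and Neurod1 (adjusted p = 0.0461), and DESeq2 called Krt2 with the filter (adjusted p = 0.00235). Slc17a8, another vesicular glutamate transporter, differed by -1.04 ± 0.29 (adjusted p = 0.999), as did Morc2b (-1.05 ± 0.28), Herc6 (-0.51 ± 0.14), Rgs11 (-0.37 ± 0.10) and Plekha7 (-0.27 ± 0.08). That the BLA values of these mice did not pass a test does not show that they were alike.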

How the data were processed

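The authors deposited raw counts per Ensembl gene, 1 file for each library. The submitters' processing notes list MultiQC 1.7, HISAT2, HTSeq 0.11.1, DESeq2 and build mm9; how they were run, and whether strand was used, is not given in the sources used here, so antisense overlaps cannot be told apart. Names came from GENCODE vM1 on NCBIM37 (mm9) for 32708 of 51826 identifiers, which held 98.3% of gene counts.

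Slc17a7 CPM for the choice used the plain sum of gene rows; all other levels are CPM with TMM factors over 39 libraries. A gene passed filterByExpr at a minimum count of 10. Tests used edgeR 4.0.16 (R 4.3.3; TMM, robust glmQLFit, quasi-likelihood F test, threshold 0.05), DESeq2 1.42.0 as an alternative, and exact permutation (SciPy 1.17.1). The scripts were tested on simulated data. Named genes are members of the glutamatergic, layer, claustrum, thalamic, septal and hippocampal lists, the 12 largest differences with a mean of at least 1 CPM, and the 5 smallest p per direction in the BLA. The sets, lists and rules were chosen with earlier results of these data known. Library 122 was kept by its title. Results of 1 gene are not reported here. Same-numbered NAc and BLA libraries were taken as 1 mouse; the labels give no sex, litter or batch. Rows that name no gene, such as reads assigned to no feature (16.04% to 27.6% in the NAc), stayed out of library sizes.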

Additional observations from a re-analysis of the deposited data

Results flagged for a closer look

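Of 80 values checked for a library far from the others of its set, 4 were marked (5%), and chance marks about 1 in 20. The summed level of activity-induced early genes was 751 CPM in low-set library 133, beside 516 CPM in the next. Neurod6 was 0.210 CPM in low-set library 128 and 0 in the other 4. Cplx3 was 0.634 CPM in low-set library 127, beside 0.276 CPM in the next. Nr4a2 was 3.60 CPM in high-set library 122, beside 9.91 CPM in the next lowest. No library was marked more than once.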

How the results depend on the processing

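Plain CPM and DESeq2 size factors each gave the same 50 higher genes; a pseudocount of 1 CPM gave 48 and no filter 57. At 1.5-fold, 79 genes were higher and 8 lower. Leaving out each of the 10 libraries in turn gave 44 to 75 higher and 0 to 6 lower genes. Within wild-type libraries (4 against 2) 116 were higher and 10 lower, and within Lmo4gt/+ libraries (1 against 3) 345 and 125, where fewer libraries make non-overlap easier and the Lmo4gt/+ high side is library 122 alone. The 50 genes were chosen for non-overlap, so their sign cannot turn when libraries are left out. Dropping libraries 122 and 134 was chosen after seeing the data. In the BLA of the same mice DESeq2 called 2 genes and edgeR without a filter 15, edgeR called 0 without each library in turn. In the 9 other NAc libraries DESeq2 called 2 higher genes and no filter 1; without single libraries edgeR called 0 to 292 higher and 0 to 56 lower genes. The upper ends came without library 150, where 5 of the 50 genes were called higher and none lower; the cause was not tested. No paired analysis was possible because the sets compared hold different mice and share no replicate numbers. Low genes such as Emx1 and Neurod6 rest on few reads in the low set, so their differences depend on the pseudocount.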

Other observations

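In the 9 NAc libraries of neither set, 8 of 10 activity-induced early genes had a negative slope on Slc17a7 at an unadjusted p under 0.05, with a median slope of -0.30, beside 3.68% of all genes, and 6 of 13 mitochondrial genes a positive one (median 0.19), beside 5.16% of all genes. Egr1, an immediate early transcription factor, had a slope of -0.21 ± 0.07, and mt-Nd1, a complex I subunit, 0.21 ± 0.08 (edgeR adjusted p = 0.562 for both, so neither passed with all 9 libraries). Between the high and the low set the same lists had medians of -0.10 and 0.01. Of 11 microglial genes, 5 had a positive slope at an unadjusted p under 0.05, P2ry12 among them with 0.23 ± 0.06, against a median difference of 0.02 between the sets. Without library 150, edgeR called mt-Nd1 (0.32 ± 0.06, adjusted p = 0.0344), mt-Cytb (0.30 ± 0.07, adjusted p = 0.0470) and the complement genes C1qc (0.45 ± 0.09, adjusted p = 0.0385) and C1qb (0.42 ± 0.10, adjusted p = 0.0470). These genes were picked after their values were seen.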
